A study of Ascaris suum with 10 samples.

Results

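The testis of the pig roundworm Ascaris suum was compared with its early embryo over all 15446 genes of the deposited table. The comparison rests on 4 of the 10 libraries of the series, namely 1 library of the germinal zone of the adult testis and 3 libraries of embryos incubated for 24 hr (1 cell), 46 hr (1 to 2 cells) and 64 hr (2 to 4 cells). All come from a North American wild population with no allele or treatment named in the labels, and the embryos are fertilized eggs taken from female uteri. The 3 embryo libraries share a single column whose making is not stated, so the embryo value is the authors' value for these stages together. The germinal zone of the adult ovary (1 library) was used to divide the genes, and 5 further columns (larva of day 7, intestine, muscle that includes hypodermis, and the carcasses of both sexes) were used only to describe them. Whether animals were pooled is not stated in the labels. No markers of testis, ovary or embryo could be checked, because the table pairs its identifiers with no names.

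An early embryo inherits RNA from the oocyte, and in Ascaris parts of the germline genome are lost from somatic cells in the course of cleavage. Whether the embryo transcripts described here came from the oocyte was not tested. The testis makes transcripts for meiosis and for the crawling sperm of nematodes, which have no flagellum. The division by ovary level asks how transcripts of testis, of embryo or of both stand in the other germ line.

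Values are RPKM, reads scaled for the length of the gene model and for the mapped reads of the library. A transcript was called present at 5 RPKM or more and absent below 1 RPKM, and "absent" does not mean 0. Genes were at like level when both columns reached 5 RPKM and log2((testis + 1)/(embryo + 1)) lay between -1 and 1. These 3 rules, each divided by whether ovary reached 5 RPKM, give 6 sets. The levels of testis, embryo and ovary in a set follow from the rule and are a description. With 1 library of testis and 1 embryo column there is no replicate error, no test was possible, and each difference compares these libraries. In such bulk samples, fewer cells of a type and less RNA per cell cannot be told apart.

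The columns differ in shape. Testis had 10285 genes at 1 RPKM or more and embryo 12213, although the summed RPKM was 805258 in testis and 583660 in embryo. Testis had 173 genes at 500 RPKM or more, with 64.2% of its sum, whereas embryo had 104 such genes with 20.05% of its sum. The median gene stood at 3.3 RPKM in testis and 11.3 in embryo, and the log2 ratio over the whole table had a median of -1.35. A gene of equal RPKM in both columns therefore lies 1.35 above the median gene. With the columns scaled by the median of ratios, the median log2 ratio was -0.025, and with scaling by the upper quartile it was -0.52.

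By a log2 difference of at least 2, testis was higher at 1609 genes (10.4% of the table) and embryo at 5515 genes (35.7%). The testis-high genes had a testis median of 65.8 RPKM and an embryo median of 1.2. For the embryo-high genes the embryo median was 31.1 RPKM and the testis median 2.8. The few genes of the testis side held 77.5% of the testis sum, and the many of the embryo side 60.7% of the embryo sum. Ovary reached 5 RPKM for 38.3% of the testis-high genes and for 75.3% of the embryo-high genes, against 56.5% of all genes. Of the genes past the threshold, 22.6% were higher in testis, and this share became 45.0% with scaling by the upper quartile and 72.7% with scaling by the median of ratios.

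**Figure D1:**
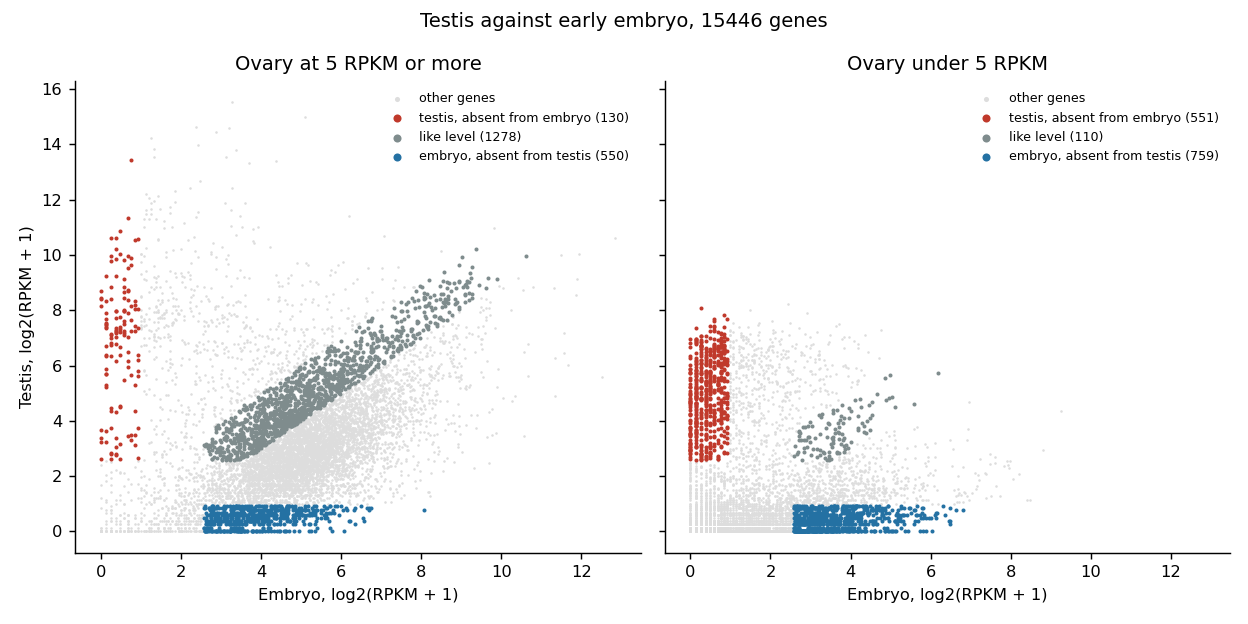
Each point is a gene, with embryo on the x axis and testis on the y axis, both as log2(RPKM + 1), at left for ovary at 5 RPKM or more and at right for ovary under 5 RPKM. Red, grey and blue mark testis transcripts absent from embryo (130 and 551 genes), genes at like level (1278 and 110) and embryo transcripts absent from testis (550 and 759), and pale points are the remaining genes.

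All genes can be placed by these levels. Of the 6593 genes present in testis, 681 were absent from embryo, 730 stood between 1 and 5 RPKM there, and 5182 were present in both columns. Among the 5182, 1388 were at like level, 500 were higher in testis and 3294 were higher in embryo. Of the 9449 genes present in embryo, 1309 were absent from testis and 2958 stood between 1 and 5 RPKM in testis. A further 4586 genes were under 5 RPKM in both. Presence in both columns was thus the usual case, but like level was not: 26.8% of the genes present in both met it. By the same rule testis and ovary had 2061 like-level genes (13.3% of the table), or 38.7% of those present in both. Embryo and ovary had 4538 (29.4%), or 58.1% of those present in both. Male and female carcass, which are labelled with the same tissues, had 5140 (33.3%), or 82.2% of those present in both. Testis is shared by one of these pairs and embryo by another, so they are not independent of the testis and embryo values. Across the 5182 genes, which are not independent replicates, Spearman's rho between testis and embryo was 0.28, against 0.54 over all genes, which include those low in both columns.

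**Figure D2:**
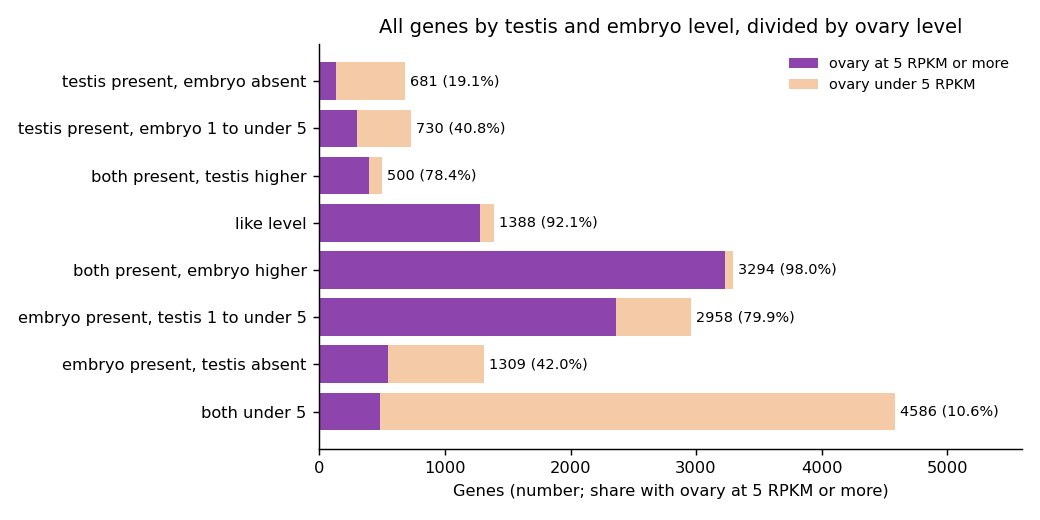
Bars give the number of genes (x axis) in each of 8 ranges of testis and embryo level, with ovary at 5 RPKM or more in purple and under 5 RPKM in tan. The printed share with ovary at 5 RPKM or more is 19.1% for testis transcripts absent from embryo, 92.1% at like level, 98.0% where both are present and embryo is higher, and 42.0% for embryo transcripts absent from testis.

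The share of genes that reach 5 RPKM in ovary differed widely between these ranges. It was 19.1% for testis transcripts absent from embryo, 40.8% where embryo stood at 1 to 5 RPKM, 78.4% where both were present and testis was higher, and 92.1% at like level. It was 98.0% where both were present and embryo was higher, then 79.9% for embryo transcripts at 1 to 5 RPKM in testis and 42.0% for those absent from testis. Transcripts present in both testis and embryo were therefore seldom missing from ovary, with 94.5% of the 5182 at 5 RPKM or more there. For comparison, 80.8% of all genes present in testis and 82.7% of all genes present in embryo reached that level in ovary.

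The 681 testis transcripts absent from embryo (4.41% of the table) made up 10.3% of the genes present in testis and 9.13% of the summed testis RPKM. Most, 551, were under 5 RPKM in ovary, and 192 of these were under 1 RPKM there. In embryo 69 of the 681 (10.1%) were listed at 0, where embryo lists 612 of all 15446 genes at 0. At the edge of the rule, 37 genes stood at 0.9 RPKM in embryo and were counted, and 48 stood at 1 RPKM and were not. The male and female carcass pair gave 195 genes (1.26%) present in male and absent from female, and 118 (0.764%) the opposite way.

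The 551 genes low in ovary were close to a testis class. Their testis level ran from 5 to 271.2 RPKM with a median of 32.3, and the medians elsewhere were 1.5 RPKM in ovary, 0.6 in larva, 0.4 in male carcass, 0.3 in embryo, 0.1 in intestine and 0 in muscle and female carcass. Testis was the highest of the 8 columns for 506 of them (91.8%), against 80.0% of genes present in testis and under 5 RPKM in ovary, and the rule itself puts testis above embryo and ovary. Of the 551, 393 (71.3%) stayed under 1 RPKM in all 4 adult somatic columns, compared with 16.3% over the whole table and 54.9% of genes present in testis and under 5 RPKM in ovary. In 138 genes every other column was under 1 RPKM, and the rule places every such gene of the 6593 present in testis in this set. A minority of 80 genes (14.5%) was at 5 RPKM or more in larva or an adult somatic column. This share was below the 74.3% of all genes and the 25.5% of genes present in testis and under 5 RPKM in ovary. The highest somatic value among the 551 was 6828.3 RPKM in male carcass.

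ASG02898 had the highest testis level among these 551 genes. It stood at 271.2 RPKM in testis, 4 in ovary, 2.8 in larva, 0.9 in male carcass, 0.4 in intestine and 0.2 in embryo, and was listed at 0 in muscle and female carcass. Its log2 ratio of testis to embryo was 7.83. Every other column was thus far below testis, with ovary at 1.47% of the testis level.

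The 130 genes that reach 5 RPKM in ovary were more abundant in testis, with a median of 149.8 RPKM and a range of 5.1 to 11168.1. Their ovary median was 10.1 RPKM, their larva median 3.1 and their male carcass median 3.55, whereas female carcass had a median of 0.1 and muscle of 0.25. Larva was at 1 RPKM or more for 121 of them (93.1%), against 98.9% of genes present in both testis and ovary. Among the 551 it was for 179 (32.5%), against 48.7% of genes present in testis and under 5 RPKM in ovary. By ovary level relative to testis the 130 fell into 3 bands. Ovary stood under 10% of testis for 80 genes, at a median of 4.02%, between 10% and 100% for 23, and at or above testis for 27.

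The bands had different somatic levels. The 80 genes far below testis in ovary had medians of 251.55 RPKM in testis, 1.9 in male carcass and 0.1 in muscle, and were at a median of 0 in female carcass. The 27 genes at or above testis in ovary had medians of 9.8 RPKM in testis, 22.2 in ovary, 50.7 in male carcass, 29.3 in muscle and 29.2 in female carcass, so the muscle and carcass medians lay above the testis median. The 23 between them had medians of 38.7 RPKM in testis, 37 in muscle and 50.7 in male carcass. One of the 130 reached 47517.8 RPKM in intestine.

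ASG10176 led the 130 genes, with 11168.1 RPKM in testis and 0.7 in embryo (log2 ratio 12.68). It stood at 457 RPKM in ovary, 152.4 in intestine, 147.6 in larva, 71.1 in male carcass, 3.2 in muscle and 0.4 in female carcass. The ovary value was 4.09% of the testis value. Embryo and female carcass were thus the columns below 1 RPKM, while male carcass, larva, intestine and ovary were well above it.

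Passing 5 RPKM in ovary went with abundance in testis only among the more abundant testis transcripts. Among testis transcripts absent from embryo, the share with ovary at 5 RPKM or more was 17.2% of 99 genes at 5 to 10 RPKM in testis, 8.04% of 112 at 10 to 20, 4.97% of 181 at 20 to 50 and 10.3% of 145 at 50 to 100. It was then 48.4% of 124 genes at 100 to 500 RPKM and 20 of 20 genes at 500 RPKM or more. Over the same upper bins the median ovary level as a percentage of testis stayed at 3.57%, 3.29% and 3.36%. From 100 RPKM upward, the fixed division at 5 RPKM thus ran along the testis level.

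**Figure D3:**
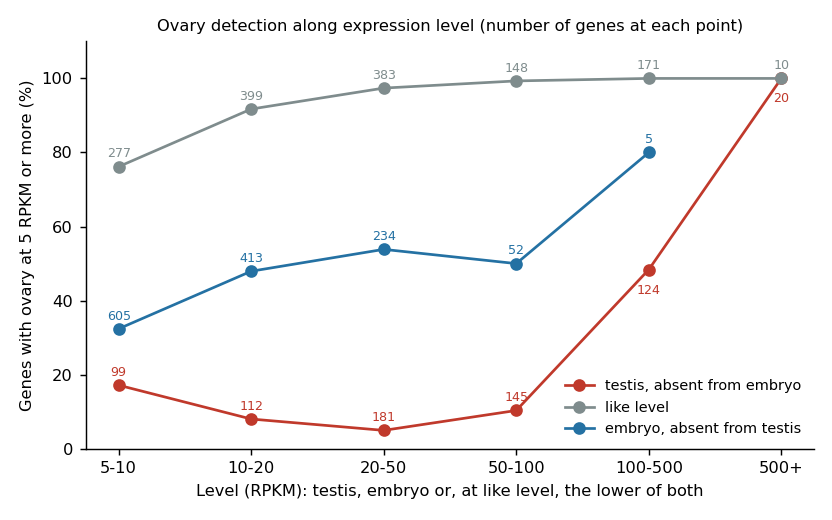
The y axis gives the percentage of genes with ovary at 5 RPKM or more, and the x axis the level in RPKM of testis (red), of embryo (blue) or of the lower of both at like level (grey), with the number of genes at each point. Red stays between 4.97% and 17.2% up to 100 RPKM and reaches 100% at 500 RPKM or more, while grey runs from 76.2% to 100%.

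The level that testis-led genes kept in other columns was measured to read this division. Testis-led genes had 50 RPKM or more in testis with no other column above 1/5 of that level, and there were 821. In ovary they stood at medians of 3.66%, 3.55% and 3.60% of testis for genes at 50 to 100, 100 to 500 and 500 or more RPKM in testis, and in larva at 1.45%, 1.22% and 1.20%. In embryo the percentages were 1.92%, 1.04% and 0.177%. The embryo median was 1.3, 1.8 and 2.85 RPKM over the same bins, whereas the ovary median was 2.7, 6.4 and 53.65 RPKM. In male carcass the medians were 0.810%, 0.747% and 0.669%. Ovary thus held a near constant percentage of testis, larva and male carcass fell slightly, and embryo fell far more. The definition caps each of these percentages at 20%, so it does not fix their trend.

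**Figure D4:**
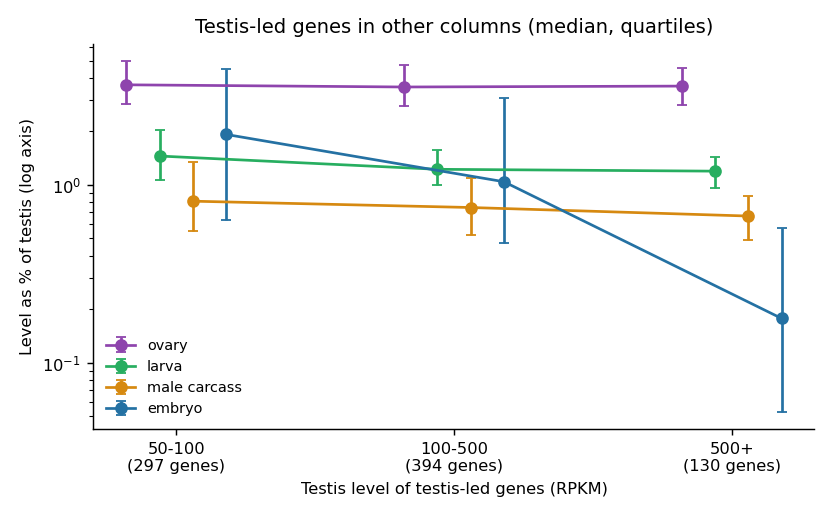
Points give the median level of testis-led genes in 4 other columns as a percentage of testis (log axis), with bars for the quartiles, in 3 bins of testis level in RPKM (297, 394 and 130 genes). Ovary stays at 3.55% to 3.66% and larva at 1.20% to 1.45%, while embryo goes from 1.92% to 0.177%.

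With 3.60% of the testis value, the median over all 821 genes, taken from ovary, 55 of the 130 genes still reached 5 RPKM in ovary. The percentage comes from genes chosen for a high testis and a low ovary level, and 80 of the 130 are themselves far below testis in ovary. The loss is therefore not independent of this choice, and how much of it follows from the choice was not tested. The 55 had a testis median of 21.5 RPKM and an ovary median of 19.1, and 11 of them had 100 RPKM or more in testis. The part of a constant testis percentage in the ovary column was not tested further. Of the 1278 genes at like level, 1266 remained. Of the 550 embryo transcripts at 5 RPKM or more in ovary and absent from testis, 542 did. The rule holds testis at 0.9 RPKM or less in the 550, so almost nothing was taken off and this count is no contrast to the 55.

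Absence from embryo was about as frequent among testis transcripts at 500 RPKM or more as among all those present in testis. At 100 RPKM or more it was more frequent, with 144 of 903 genes (15.9%). Of the 173 genes that reached 500 RPKM in testis, 20 (11.6%) were under 1 RPKM in embryo, against 10.3% of all genes present in testis. A further 67 stood at 1 to 5 RPKM in embryo and 86 were present. Of the 86, 19 were at like level. In the opposite direction, of 104 genes at 500 RPKM or more in embryo, 0 were absent from testis, 2 stood at 1 to 5 RPKM and 102 were present. By summed RPKM, testis was carried by genes present in both columns but higher in testis (39.0%) and by genes at 1 to 5 RPKM in embryo (32.0%).

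Carcass values differed by sex in these sets. Male carcass was above female carcass for 115 of the 130 genes and for 429 of the 551, that is 88.5% and 77.9%, against 46.5% of all genes. For all genes present in testis the shares were 44.5% with ovary at 5 RPKM or more and 67.0% with ovary under that. Among the 551 the medians were 0.4 RPKM in male and 0 in female carcass, so many of these gaps lay below the limit for absence. Male carcass was listed at 0 for 47 of the 551 and female carcass for 335. Over all genes the libraries also differed at the floor, with 762 genes listed at 0 in male and 1811 in female carcass. Each carcass is 1 library. Testis-led genes stood in male carcass at a median of 0.755% of testis and in female carcass at 0.136%. The part that testis RNA in the male carcass library may have in these counts was not tested.

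The 1388 genes at like level (8.99% of the table) held 10.4% of the testis sum and 16.1% of the embryo sum. Of these, 1278 were at 5 RPKM or more in ovary. They were broadly expressed, with medians of 25.25 RPKM in testis, 29.9 in embryo, 30.15 in ovary, 26.3 in larva, 14.2 in male carcass, 13.8 in female carcass, 11.8 in intestine and 10.3 in muscle. All 4 adult somatic columns reached 1 RPKM for 1049 of them (82.1%), compared with 46.9% over the whole table and 78.1% of genes present in both testis and ovary. The breadth was therefore near that of other genes shared by testis and ovary. Ovary was above both testis and embryo for 566 of the 1278 genes and below both for 438. The counts were 1335 and 768 of the 5326 genes present in testis and ovary, and 4073 and 2051 of all 15446. The like-level rule holds testis and embryo close together, which leaves little room for ovary between them, so the 566 and 438 are a description.

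ASG00009 had the highest lower value of the pair at like level. It stood at 995.2 RPKM in testis, 1570.5 in embryo, 1445.3 in ovary, 1029.1 in larva, 1676.3 in male carcass, 992.9 in muscle, 938.2 in female carcass and 5596.2 in intestine. All columns except intestine lay within a narrow range, and the log2 ratio of testis to embryo was -0.66.

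The 110 genes at like level but under 5 RPKM in ovary were scarcer, with medians of 10.7 RPKM in testis, 10.9 in embryo and 2.8 in ovary. Ovary was below 1 RPKM for 17 of them. Larva reached 5 RPKM for 38 (34.5%), against 58.9% of all genes. Among genes under 5 RPKM in ovary, larva did so for 12.0% of those present in testis and 44.9% of those present in embryo. Male carcass did for 30 (27.3%), against 47.3% of all genes and 15.1% and 31.1% of these 2 groups. All 4 adult somatic columns were under 1 RPKM for 22 (20%), against 16.3% of all genes and 54.9% and 14.5% of the groups. The highest column was testis for 40 (36.4%), embryo for 38 (34.5%) and larva for 10 (9.09%), against 12.9%, 31.7% and 20.1% of all genes. The rule asks for 5 RPKM in testis and embryo and bars ovary from being highest, so these shares are a description. ASG07274 stood first by the lower of its testis and embryo values. Its values were 52.1 RPKM in testis and 71.6 in embryo against 1.8 in ovary, 1.6 in larva, 1.5 in female carcass and 0.5 in male carcass, and it was listed at 0 in intestine and muscle. Testis and embryo were thus the columns above 2 RPKM, with a log2 ratio of -0.45.

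Which genes were at like level depended on the scaling. With scaling by the median of ratios 3598 genes were at like level, of which 5 were among the 1388. With scaling by the upper quartile there were 2574, sharing 825 with the deposited values, and with scaling to an equal sum 1048, sharing 924. The share with ovary at 5 RPKM or more was 91.4%, 94.3% and 90.8% under these scalings.

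The 1309 embryo transcripts absent from testis (8.47% of the table) made up 13.9% of the genes present in embryo but 3.66% of the embryo sum. They were of low to moderate level, and 5 reached 100 RPKM in embryo. In testis 255 of them (19.5%) were listed at 0, where testis lists 2447 of all 15446 genes at 0 and embryo 612. At the edge of the rule, 99 genes stood at 0.9 RPKM in testis and were counted, and 76 stood at 1 RPKM and were not. Ovary was at 5 RPKM or more for 550 and under that for 759, of which 260 were under 1 RPKM. Along the embryo level the ovary share was 32.4% at 5 to 10 RPKM, 47.9% at 10 to 20, 53.8% at 20 to 50 and 26 of 52 genes at 50 to 100 RPKM. The median ovary level as a percentage of embryo went the opposite way, from 38.2% in the lowest of these bins to 6.34% in the highest.

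The 550 genes present in ovary had like medians there and in embryo, 11 and 12.9 RPKM, and ovary stood at or above embryo for 239 of them. Larva had a median of 8 RPKM, female carcass 4.7, male carcass 2.8, muscle 1.95 and intestine 0.3. Larva reached 5 RPKM for 323 (58.7%), close to the 58.9% of all genes but below the 88.2% of genes present in both embryo and ovary. Intestine reached 1 RPKM for 202 (36.7%), against 80.9% of genes present in both embryo and ovary, and female carcass for 520 (94.5%), against 97.9%. At 5 RPKM, female carcass was reached by 268 (48.7%), against 71.7% of genes present in both embryo and ovary.

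ASG07754 had the highest embryo level of the 550 genes. It stood at 267.7 RPKM in embryo, 291.9 in ovary, 73.9 in female carcass, 14.4 in muscle, 10.1 in larva, 7.8 in male carcass, 0.7 in testis and 0.3 in intestine. Embryo and ovary were alike and testis was lower by a log2 ratio of -7.30. The next column below them was female carcass.

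The 759 genes low in ovary had a median embryo level of 9.5 RPKM. Their medians elsewhere were 3.8 RPKM in larva, 1.7 in ovary, 1.8 and 2.1 in the male and female carcass, 0.9 in muscle and 0.2 in intestine. Embryo was the highest column for 447 (58.9%) and larva for 121 (15.9%), near the 56.5% and 12.6% of all genes present in embryo and under 5 RPKM in ovary. Among the 550 genes, embryo was highest for 171 (31.1%) and larva for 130 (23.6%), against 45.2% and 18.3% of genes present in both embryo and ovary. Ovary stood under 25% of embryo for 512 of the 759 genes and for 43 of the 550. Larva reached 5 RPKM for 311 of the 759 (41.0%), against 44.9% of all genes present in embryo and under 5 RPKM in ovary. Of the 759, 41 (5.40%) were under 1 RPKM in larva and all 4 adult somatic columns, near the 5.98% of all genes present in embryo and under 5 RPKM in ovary. The matching counts for the 551 testis genes were 296 (53.7%), against 38.8% of genes present in testis and under 5 RPKM in ovary. Every other column was under 1 RPKM for 28 of the 759, and the rule places every such gene of the 9449 present in embryo in this set.

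ASG14824 had the highest embryo level of the 759 genes. Its embryo value was 111.8 RPKM, followed by larva at 15.5, female carcass at 5.1, ovary at 2.9, intestine at 1, testis at 0.7, male carcass at 0.4 and muscle at 0.3. Embryo was far above every other column, with ovary at 2.59% of the embryo level and a log2 ratio of testis to embryo of -6.05.

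**Figure D5:**
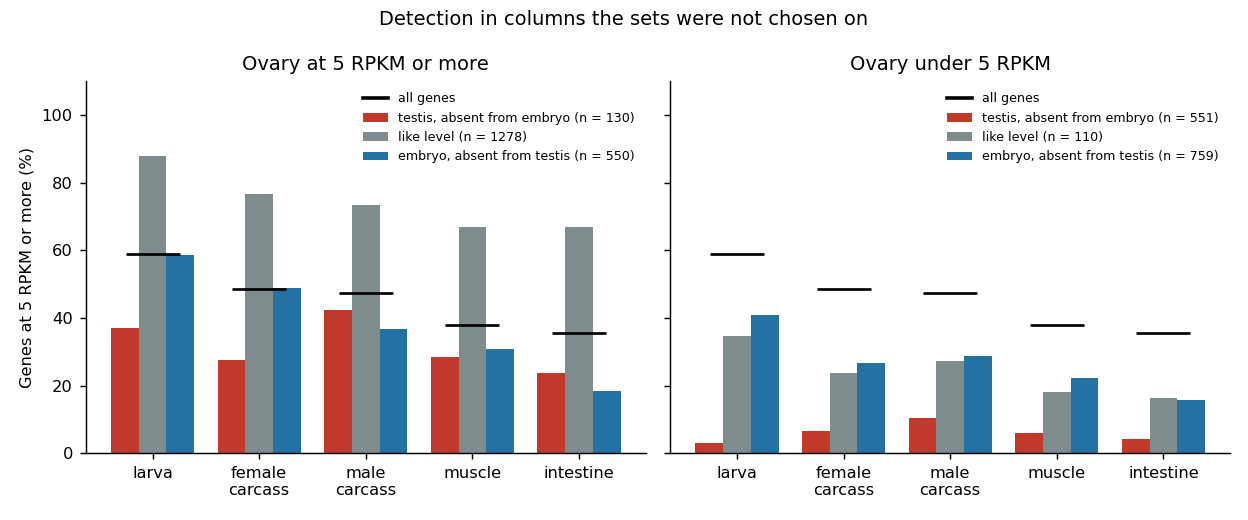
Bars give the percentage of genes at 5 RPKM or more (y axis) in 5 columns that the rule did not use, for the 6 sets, at left with ovary at 5 RPKM or more and at right under it, and black lines give all genes. Testis transcripts absent from embryo and low in ovary have the lowest bars, from 3.09% in larva to 10.3% in male carcass, and genes at like level present in ovary the highest, from 66.9% to 87.7%.

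Female carcass was above male carcass for 380 of the 550 genes (69.1%) and for 423 of the 759 (55.7%). The shares were 58.4% and 54.1% for all genes present in embryo on the same sides of the ovary division, and 47.9% for all genes. Embryo-led genes, the 194 with 50 RPKM or more in embryo and no other column above 1/5 of that level, stood in larva at a median of 7.07% of embryo, in female carcass at 6.29%, in ovary at 5.08%, in testis at 2.37% and in male carcass at 1.87%. The part of eggs or embryos in the female carcass library was not tested.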

How the data were processed

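Poly(A)+ RNA was fragmented, copied with random primers and sequenced on Illumina instruments, per the labels' protocols. The authors deposited RPKM values of 15446 genes in 8 columns, rounded to 0.1. Per the submitters' processing notes the tools included TopHat and Cufflinks. Their versions, the build, the gene models, the strandedness of counting and library totals are not stated there, so the depth is unknown, no interval or floor is given, and a 0 is called listed at 0. Columns were matched to samples by title, and the embryo column to the embryo group. Columns from outside the series numbered 0. No annotation was used, so the gene and marker lists matched no gene and no sequence is shown.

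Differences used log2(RPKM + 1), which understates changes of low genes, with no filter on low values. Named genes are those with the highest leading value (at like level, the highest lower value) in each of the 6 sets. The sets, thresholds, lists and the subtraction from ovary were chosen with earlier results of these data known. Rules were tested on simulated data. Alternatives were 3 scalings, other pseudocounts (0.1 and 5), thresholds and ovary limits. Python 3.11.15, pandas 2.3.3 and numpy 2.4.6 were used.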

Additional observations from a re-analysis of the deposited data

How the results depend on the processing

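No paired analysis was possible because each adult tissue has 1 library and the 3 embryo libraries share 1 column, and for the same reason no library could be left out. Counts are given for the testis set (testis transcripts absent from embryo), the like-level set and the embryo set (embryo transcripts absent from testis). Of 109 counts recomputed, 51 lay within 1.5 times the deposited count. The testis set had a lower share with ovary at its limit than the embryo set in 11 of 11 alternatives, and the embryo set a lower share than like level in 8 of 8. Of 30 recomputed log2 ratios of the named genes, 27 kept their call. At like level as deposited, ASG00009 left it with scaling to an equal sum (-1.12) and by the median of ratios (1.53), and ASG07274 by the median of ratios (1.70). Both also turned sign with scaling by the upper quartile (0.46 and 0.65), within like level.

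Scaling by the upper quartile gave 196 testis-set genes with ovary at 5 RPKM or more, 2574 at like level (2427 with ovary at 5 or more), 701 in the embryo set (297 and 404 on the sides of the ovary division), and 2363 genes higher in embryo. Scaling by the median of ratios gave 1278 in the testis set (211 with ovary at 5 or more, 1067 under), 3598 at like level (3288 and 310), 329 in the embryo set (124 and 205), and 2628 genes higher in testis against 987 higher in embryo. Genes higher in embryo numbered 2828 with a pseudocount of 5, 8855 at a log2 threshold of 1 and 2300 at 3.

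With absence below 0.5 RPKM the testis set had 417 genes (76 and 341) and the embryo set 751 (273 and 478). Below 2 RPKM the testis set had 252 with ovary at 5 or more, and the embryo set 2189 (1115 with ovary at 5 or more). With absence only where listed at 0 the sets had 69 (8 and 61) and 255 (77 and 178). With presence at 2 RPKM there were 255 like-level genes under 5 in ovary and 2230 in the embryo set (1516 under 5 in ovary), and with presence at 10 RPKM 44 and 704 (354 and 350). With ovary divided at 1 RPKM the sides were 489 and 192 in the testis set and 1049 and 260 in the embryo set, with 17 like-level genes under it. Divided at 10 RPKM, 67 testis-set and 304 embryo-set genes were above and 262 like-level genes under. With 3.60% of testis taken from ovary, 55 testis-set genes had ovary at 5 or more. Like level within 0.5 gave 712 genes (651 and 61) and within 2 gave 3093 (2909 and 184). The direct effect of each limit is to widen or narrow its set, and the cause of the scaling differences was not tested.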

Other observations

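Transcripts of the ovary that neither testis nor embryo holds at 5 RPKM were a further group. There were 484 such genes, with a median of 9.35 RPKM in ovary, 2.1 in embryo and 0.4 in testis. They held 6.24% of the summed ovary RPKM of 596733, and a large part of this came from 1 gene at 16997.2 RPKM. Larva was their highest column for 175 (36.2%) and ovary for 141 (29.1%), against 20.1% and 9.78% of all genes. The choice of genes bars testis and embryo, which are highest for 12.9% and 31.7% of all genes, from being highest here. It thereby raises the shares of larva and ovary, so neither excess is a result about these genes. Larva reached 5 RPKM for 311 of them (64.3%), near the 58.9% of all genes, with a median of 13.8 RPKM.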
